A study of Mus musculus with 8 samples.

Results

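The genes described here encode the MHC class II antigen presentation machinery and its master regulator. They are 10 genes, chosen by family, of 21631 protein-coding genes in the RefSeq annotation of GRCm38.p6, which has the chromosomes of mm10. H2-Aa, H2-Ab1 and H2-Eb1 encode chains of the classical class II molecules I-A and I-E. H2-DMa, H2-DMb1 and H2-DMb2 encode chains of H2-DM, which helps to load peptide, and H2-Oa and H2-Ob encode H2-O, an inhibitor of H2-DM. Cd74 encodes the invariant chain, and Ciita the class II transactivator. A site was assigned to a gene if it lay inside the gene or within 50 kb of its ends. A site called shared is a stretch of overlapping peaks with at least 1 bp in common between the replicates. There were 78 distinct shared sites around the 10 genes, of 44365 in the genome.

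The data are ATAC-seq maps of mouse dendritic cells described as CD8-positive, from 2 samples that received no stimulus. In ATAC-seq a transposase inserts adapters into accessible DNA. No genotype, strain or age is given for them, and the labels name both spleen and a cell line as the source. Nothing says that the replicates came from separate cultures, so differences between them may be technical. The series has 8 samples; the other 6 are ChIP-seq of IRF3 after poly(I:C), IRF5 after CpG and IRF9 after interferon-beta, each for 90 min, and were not analysed here.

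Class II molecules display peptides from ingested proteins to CD4+ T cells, and the invariant chain escorts them to the compartment where peptide is loaded. Their genes share an upstream module, the S, X and Y boxes, bound by RFX, CREB and NF-Y proteins. CIITA does not bind DNA but is recruited to that assembly. In mice Ciita has several alternative promoters, called pI, pIII and pIV, of which pI is known for its use in conventional dendritic cells, pIII in B cells and plasmacytoid dendritic cells, and pIV after interferon-gamma.

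The upstream sequences of 5 class II genes are shown because a spaced pair of X-like and Y-like letters fell at the summits of their sites, or, for H2-Oa, fell where no site was listed. H2-DMb2 is shown because its promoter window partly matched that of H2-DMb1 (77.4% of aligned columns identical). Each line gives the 150 bases before the RefSeq start, 5′ to 3′ on the strand of the gene, from the GRCm38.p6 promoter table. Capitals mark GNAAC and, downstream of it, ATTGG, which is CCAAT on the other strand. The stretches are chr17:34287824-34287973 on the minus strand for H2-Aa and, on the plus strand, chr17:34305717-34305866 for H2-Eb1, chr17:34238755-34238904 for H2-Ob, chr17:34153041-34153190 for H2-DMb1, chr17:34092229-34092378 for H2-Oa and chr17:34145099-34145248 for H2-DMb2.
H2-Aa: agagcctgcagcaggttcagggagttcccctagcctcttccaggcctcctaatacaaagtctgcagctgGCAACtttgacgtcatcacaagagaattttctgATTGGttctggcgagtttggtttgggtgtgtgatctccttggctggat
H2-Eb1: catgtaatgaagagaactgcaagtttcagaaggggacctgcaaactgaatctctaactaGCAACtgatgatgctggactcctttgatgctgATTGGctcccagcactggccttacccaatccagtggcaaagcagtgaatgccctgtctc
H2-Ob: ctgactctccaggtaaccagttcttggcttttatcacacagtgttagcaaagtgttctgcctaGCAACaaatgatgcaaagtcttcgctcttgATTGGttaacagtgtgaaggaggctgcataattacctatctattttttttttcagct
H2-DMb1: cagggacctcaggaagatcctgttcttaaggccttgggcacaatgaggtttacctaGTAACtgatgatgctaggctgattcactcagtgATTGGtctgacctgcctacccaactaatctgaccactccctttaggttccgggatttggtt
H2-Oa: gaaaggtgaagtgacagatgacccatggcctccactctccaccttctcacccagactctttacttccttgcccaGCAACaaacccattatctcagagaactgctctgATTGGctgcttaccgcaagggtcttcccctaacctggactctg
H2-DMb2: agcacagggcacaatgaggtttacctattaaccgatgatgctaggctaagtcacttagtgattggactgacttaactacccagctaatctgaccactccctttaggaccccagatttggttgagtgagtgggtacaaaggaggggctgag

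The G of GNAAC lay 81 bases before the start in H2-Aa, 91 in H2-Eb1, 87 in H2-Ob, 94 in H2-DMb1 and 76 in H2-Oa. The first base of ATTGG followed it by 33 bases in H2-Aa, H2-DMb1 and H2-Oa, by 32 in H2-Eb1 and by 30 in H2-Ob. The spacing therefore differed by at most 3 bases among the 5 genes. The first letters were GCAAC in 4 genes and GTAAC in H2-DMb1. A pair 25 to 40 bases apart was searched on both strands after the sequences had been seen. With GCAAC it occurred in 0.794% of the 32851 promoters of the table, and in 4 of the 8 promoters listed for 7 of the genes. With GNAAC it occurred in 2.67% of all promoters and in 5 of the 8. Neither H2-DMb2 nor either of the H2-DMa promoters held it. These windows lie at the listed starts, so the stronger sites at the 5′ end of H2-DMb2 and inside H2-DMa, described below, were not searched. H2-Ab1, Cd74 and Ciita were not in the table.

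The single motifs were searched on both strands in windows from 250 bases before to 50 after the start. CCAAT, the Y box core, was in 7 of the 8 promoters and in 37.4% of all. GCAAC, the X1 box core, was in 5 of 8 and in 35.2% of all. TGACG, an X2 box core, was in 1 of 8, that of H2-Aa, and in 20.8% of all. The core of the interferon-stimulated response element was in none of the 8 and in 3.44% of all, and the ETS-IRF composite element in none and in 2.72%. TTCNNNGAA, bound by STAT factors, was in 1 of 8 and 8.30% of all, TGANTCA, an AP-1 motif, in 2 of 8 and 7.81%, and the E box CACGTG in none and 7.15%. These matches describe the letters only.

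The 2 lists held 50950 and 58319 peaks, of which 90.0% in replicate 1 and 76.5% in replicate 2 overlapped a peak of the other replicate. Around the 10 genes these shares were 79 of 84 peaks (94.0%, exact Clopper-Pearson 95% interval 86.7 to 98.0) and 79 of 92 peaks (85.9%, 77.0 to 92.3). The interval of replicate 1 includes the share of its whole list, and that of replicate 2 begins just above its own. These intervals cover counting error only. The lowest background, 0.676 and 1.28 reads, was 1.89 times as high in replicate 2, and the weakest listed summits held 7 and 9 reads. A site missing from a list was not detectable at that depth and threshold, which does not show that it was closed. Of 12 genes that mark cDC1, the CD8-positive conventional dendritic cells, 6 had a shared site within 1 kb of a start, or of an end where no start is listed, close to the share of all coding genes, 48.3%. Irf8, Flt3, Cadm1, Tlr3, Wdfy4 and Id2 had one, and Xcr1, Clec9a, Batf3, Itgae, Cd8a and Zbtb46 did not. The counts were 6 of 8 for macrophage markers, 4 of 8 for plasmacytoid dendritic cell markers, 2 of 8 for B cell markers, and 1 of 8 each for T cell and neutrophil markers. Other antigen-presenting cells also use class II genes, and the part of such cells in the sites described here was not tested. More cells with an open site and wider opening in each cell cannot be told apart in these pooled nuclei.

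The windows of all 10 genes held more shared sites than that of the median coding gene. Their counts ran from 11 to 24 with a median of 16.5, and all coding genes had a median of 5 (middle 50% from 1 to 8, highest 41). H2-Eb1 had the most, 24, a number reached by 0.134% of coding genes, followed by H2-Aa with 22, H2-Ab1 with 21, H2-Ob with 19 and Ciita with 18. H2-DMa, H2-DMb1 and H2-DMb2 had 15 each. H2-Oa and Cd74 had 11, a number that 13.6% of coding genes reached. The counts of neighbours are not independent, because 41 of the 49 shared sites of the class II region on chromosome 17 lay in the windows of several members. With each site given to its nearest member the median fell to 6.5. It was 8 with the better-scoring 50% of summits in each list, which left 38 distinct shared sites, and 9 and 26.5 with windows of 20 and 100 kb. These medians have no matching value over all coding genes, so they cannot be set against the median of 5.

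**Figure D1:**
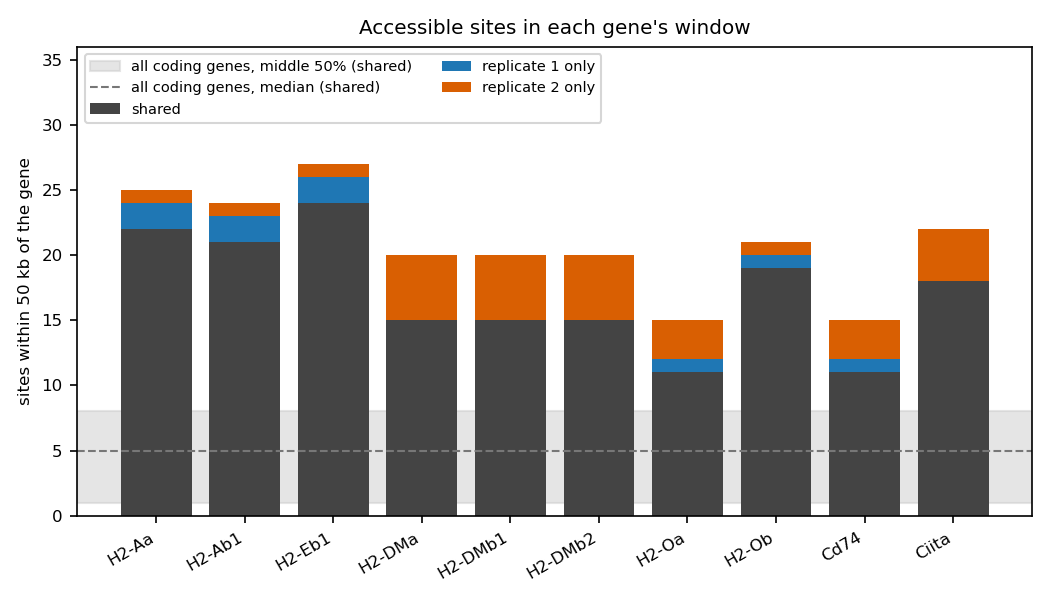
Number of sites (y axis) inside or within 50 kb of each gene (x axis), stacked as shared, replicate 1 only and replicate 2 only; the dashed line and band give the median and middle 50% of shared sites for all coding genes. The shared counts lie between 11 and 24, above the median of 5.

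A shared site lay within 1 kb of a start, or of an end where no start is listed, in 8 of the 10 genes, against 48.3% of coding genes. H2-Oa and H2-DMb2 were the 2 without. For H2-DMb2 this holds for its listed start only, because a shared site spanned the 5′ end of the annotated gene. Within 2 kb of a start the count was 9 of the 10 genes, against 51.0% of coding genes. Within 500 bp it was 7, against 46.3%. At 1 kb it was 7 with a reciprocal overlap of 50%, against 44.7%, and 6 with the better-scoring 50% of summits, against 35.6%. At least 1 shared site lay inside 9 of the genes, all but H2-Oa, against 57.5% of coding genes.

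Among the genes of the classical chains, H2-Aa and H2-Eb1 had a shared site across their listed start, and H2-Ab1 had one across its lower-coordinate end. H2-Aa (chromosome 17, 34282744 to 34287823, minus strand) had a shared site at 34287724 to 34288036 across its start. Fold enrichment there reached 5.52 in the first replicate and 5.83 in the other, with 33 and 43 reads at the summits. Pairs of values below are given in that order. Fold enrichment is here the authors' value for each peak, the reads at the summit over the local background of the same library with 1 added to both. The summits lay 46 and 68 bases before the start, both within the span of the letter pair. The site at the start of H2-Eb1 (34305867 to 34316674, plus strand), at 34305652 to 34306016, had a similar strength, with 5.90 and 6.19-fold enrichment and 37 and 47 reads. Its summits, 86 and 63 bases before the start, also fell within the pair. The values of these 2 start sites differed by less than the spread between replicates, whose log2 fold ratio had an SD of 0.27 over the 78 sites.

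A further shared site before H2-Eb1, at 34304793 to 34305069, had 6.09 and 5.96-fold enrichment, its summits 909 and 913 bases upstream. Within H2-Eb1 a peak at 34306545 to 34306620 was listed in replicate 1 only, with 3.35-fold enrichment and 20 reads. Shared sites farther inside H2-Eb1 had 6.14 and 4.35, and 4.18 and 3.60. H2-Aa had a weaker shared site inside, at 34286619 to 34286769 (4.14 and 3.30), and a peak of replicate 2 only beside it (2.98). These sites inside H2-Aa were weaker than the one at its start in both replicates.

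H2-Ab1 (34263227 to 34269418), whose strand is not in the tables used, had its sites at the lower-coordinate end. The site at 34263051 to 34263364 spanned that end, with 4.70 and 5.65-fold enrichment and 33 and 51 reads. The next, at 34264110 to 34264258, had 4.84 and 3.71. No peak of either replicate followed for 21.8 kb, a stretch that holds most of H2-Ab1 and part of H2-Aa.

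Between these genes were further sites. From H2-Ob to H2-Ab1, over 17.3 kb, there were 6 shared sites and 1 of replicate 1 only. The strongest, at 34257625 to 34257980, had 6.50 and 6.92-fold enrichment with 37 and 53 reads, and was the highest-scoring shared site in the windows of H2-Aa and of H2-Ab1. From H2-Aa to H2-Eb1 there were 4 shared sites, among them 34293472 to 34293904 with 6.52 and 6.50 and 34296046 to 34296441 with 5.80 and 6.25. In that stretch 34291692 to 34291893 differed most between replicates, 3.23 against 4.65. The highest-scoring site in the window of H2-Eb1 lay 30.9 kb above the gene, at 34347600 to 34347962, with 9.32 and 9.91-fold enrichment.

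**Figure D2:**
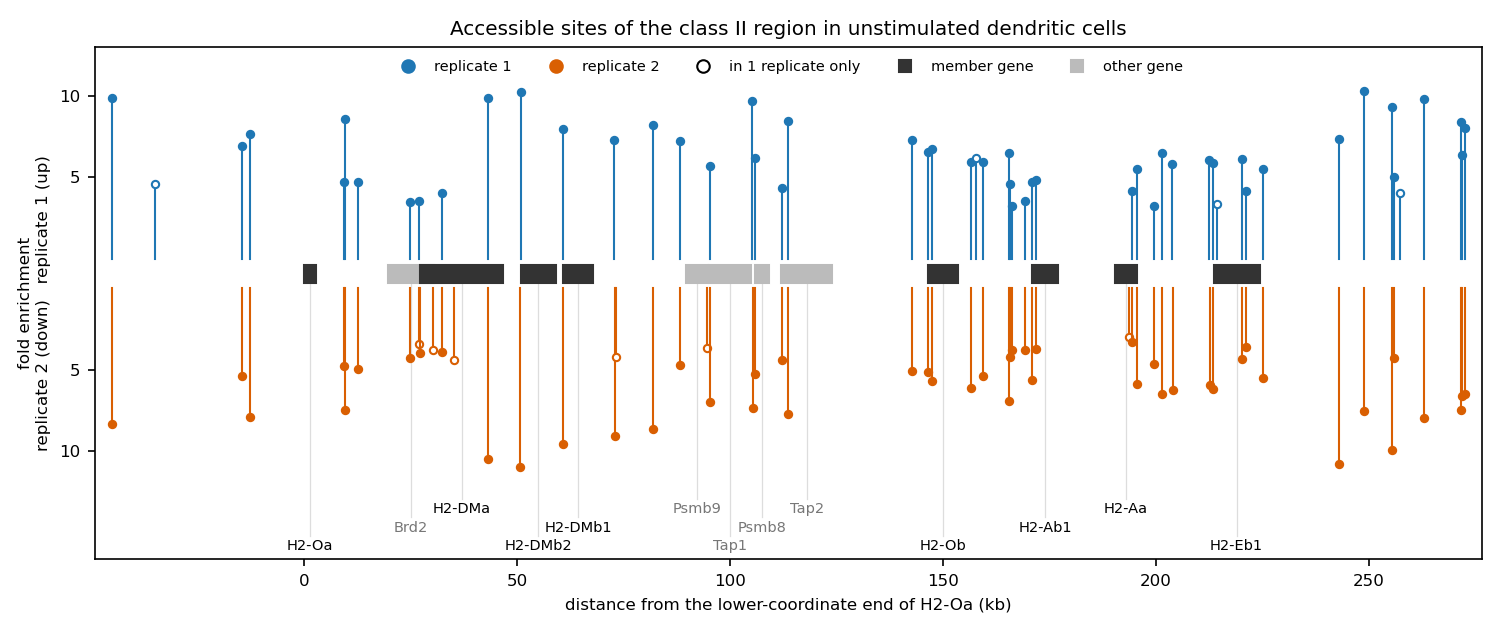
Fold enrichment of each peak of the class II region (replicate 1 upward, replicate 2 downward, from the gene track) against distance in kb from the lower-coordinate end of H2-Oa; open circles are peaks of 1 replicate only, dark boxes are the class II genes, and grey boxes other genes. No peak lies over H2-Oa, and the sites from H2-Ab1 to H2-Eb1 have lower fold enrichment than those at the 2 H2-DMb genes.

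The genes of H2-DM differed among themselves. H2-DMb1 (34153191 to 34160229, plus strand) had a shared site across its start at 34152997 to 34153378, with 7.97 and 9.54-fold enrichment and 35 and 53 reads. This was higher in both replicates than at the start of H2-Aa or H2-Eb1, by more than the spread between replicates, while the read numbers were close. Its summits lay 99 and 90 bases before the start, 5 bases outside the letter pair and within it. H2-DMb2 (34143229 to 34151553, plus strand) had no peak within 1 kb of its listed start, 34145249. A site spanned its lower-coordinate end instead, which is the 5′ end of the annotated gene. This site, at 34143035 to 34143412, had 10.2 and 11.0-fold enrichment and 41 and 54 reads. It was the highest-scoring shared site in the windows of all 3 H2-DM genes and of H2-Oa. The promoter windows of H2-DMb1 and H2-DMb2 were identical at 209 of 270 aligned columns (77.4%). The site at the 5′ end of H2-DMb2 lay outside the window compared, so the likeness of its sequence to H2-DMb1 was not measured. No source used here states how reads that match both genes were treated, so the values of these 2 genes are uncertain.

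H2-DMa (34119693 to 34139101, plus strand) has 2 listed starts. Near the upper-coordinate one, 34125518, a shared site at 34124749 to 34124860 had 4.02 and 3.90-fold enrichment, its summits 727 and 720 bases upstream. At the other, 34122832, only replicate 2 had a peak, at 34122669 to 34122798, with 3.80-fold enrichment and 34 reads; it ended 16 bp below the upper end of Brd2. Replicate 2 alone also listed 34127595 to 34127700 inside the gene (4.42) and 34119275 to 34119380 beside its lower end (3.40). A shared site at 34119436 to 34119683 (3.58 and 3.94) lay by that lower end, within Brd2. The strongest site in H2-DMa was far from both listed starts, at 34135344 to 34135853, with 9.89 and 10.4-fold enrichment and 39 and 53 reads. H2-DMa therefore had weak sites near its listed starts and a site inside as strong as those at the H2-DMb genes. Whether a transcript of H2-DMa starts at that inner site was not tested, so it may be a start site.

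The H2-O genes differed in the lists. H2-Ob (34238905 to 34245908, plus strand) had a shared site across its start at 34238769 to 34238921, with 6.55 and 5.16-fold enrichment and 26 and 24 reads. Its summits were 81 and 93 bases upstream, within the letter pair and 6 bases outside it. A second site, at 34239738 to 34239962, had 6.76 and 5.70. The highest-scoring shared site in its window lay at Psmb8, at 34197557 to 34197807 (9.69 and 7.35). H2-Oa (34092379 to 34095234, plus strand) had no peak of either replicate inside it or within 1 kb, and its nearest shared site was 6390 bp away. The gene lay in a stretch of 21.8 kb without a peak, although its upstream sequence held the same letter pair.

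Both summits lay 1 to 100 bases upstream of a listed start in H2-Aa, H2-Eb1, H2-DMb1 and H2-Ob, and in 31.6% of all listed coding starts that have a shared site within 1 kb. The site spanned the start in the same 4 genes and in 79.6% of those starts. The only other listed member start with a shared site within 1 kb was 34125518 of H2-DMa. Its summits lay 727 and 720 bases upstream, and its site did not span the start.

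**Figure D3:**
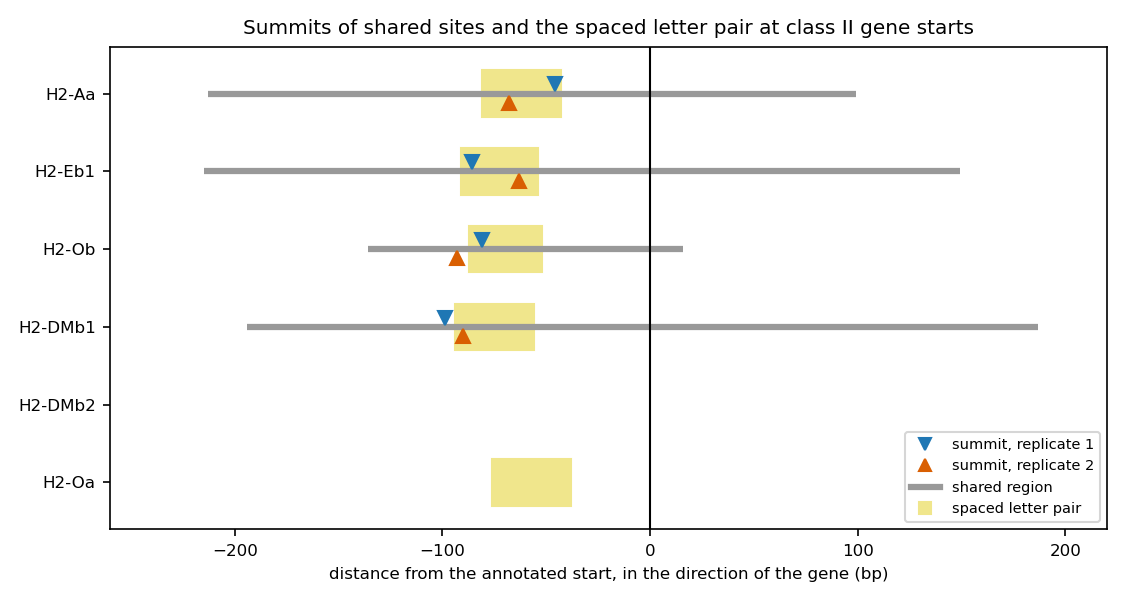
Position of the summit in each replicate (triangles), the shared region that spans the start (grey bar) and the spaced letter pair (yellow box) for 6 genes, in bases from the annotated start in the direction of the gene. Summits of H2-Aa and H2-Eb1 lie within the box in both replicates, those of H2-Ob and H2-DMb1 in 1 replicate each, and H2-Oa has a box and no site.

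Cd74 (chromosome 18, 60803849 to 60812652), whose strand is not in the tables used, had many reads and a low fold enrichment. The site at its lower-coordinate end, 60803578 to 60804011, held 36 and 55 reads, close to those of H2-DMb1, yet had 4.82 and 5.05-fold enrichment. Its local background was 6.68 and 10.1 expected reads, against 3.52 and 4.66 at H2-DMb1. A site inside, 60805691 to 60805985, had 3.47 and 2.51 with 29 and 30 reads over a background of 7.64 and 11.4. Replicate 2 alone listed 60804986 to 60805066 (2.92, 34 reads) and 60806606 to 60806721 (3.02, 38 reads). In the window of Cd74 the highest-scoring shared site was inside Tcof1, at 60843822 to 60844244, with 11.0 and 12.8-fold enrichment and 33 and 51 reads.

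A high background was found in or beside several members. The local background is the read number expected at a summit from the surrounding signal of the same library, worked out from the deposited values. Its median over the 78 shared sites was 2.83 and 3.91 reads, against 1.39 and 2.23 over all shared sites of the genome. It exceeded the 95th percentile of the list in both replicates at 18 of the 78 sites (23.1%), against 4.40% of all shared sites, and the 99th at 7, against 0.875%. Of the 18 sites 16 were in the class II region and 2 at Cd74, and none were around Ciita. As a median over the shared sites in a gene and 1 kb around it, the background of Cd74 was 7.16 and 10.7, ranks 27 and 24 of 12981 coding genes with a value. H2-Ab1 followed with 5.93 and 7.78 (ranks 58 and 100), H2-DMa with 5.47 and 6.69, and H2-Aa with 5.10 and 6.26. The H2-DMa value is the median of 3 sites that differed. The one within Brd2 had 6.83 and 8.40, and the strongest site inside H2-DMa had 3.05 and 4.17. Cd74 and H2-Ab1 were above the 99th percentile of genes in both replicates, as were 0.840% of genes. Of the 9 members with a value, Ciita was lowest in replicate 1 (2.54) and H2-Ob in replicate 2 (3.88).

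In 1 stretch of 48.4 kb, from 34257625 to the start of H2-Eb1, the background was high at every shared site. This stretch was chosen after its values were seen, and 21.8 kb of it holds no peak and so no value. Its 13 shared sites had a background of 4.85 to 7.43 reads in replicate 1 and 5.97 to 9.87 in replicate 2. That is 7.17 to 11.0 times the lowest level of the list in replicate 1 and 4.67 to 7.73 times in replicate 2. This background is in the denominator of the fold enrichment. Over the 78 sites median fold was 6.33 and 5.98, below the 7.22 and 7.59 of all shared sites, whereas median reads were 23 and 27, against 17 and 25.

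**Figure D4:**
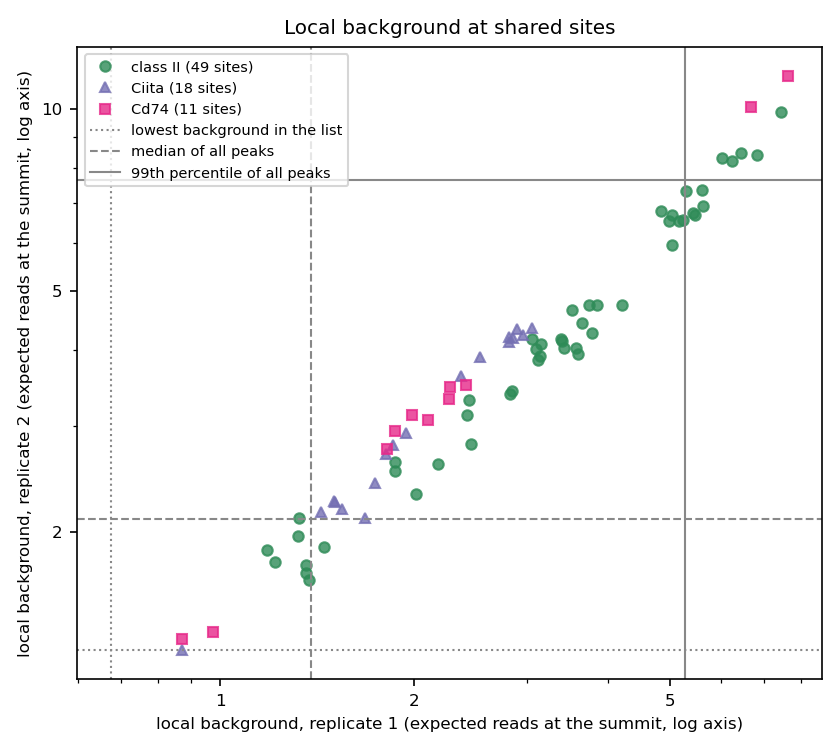
Local background at the 78 shared sites, in reads at the summit foreseen from the surrounding signal, in replicate 1 (x, log axis) and replicate 2 (y, log axis), by locus; lines mark the lowest background, the median and the 99th percentile of all peaks. The 2 Cd74 sites at the upper right are at the gene's lower end and inside it, and no Ciita site passes the 99th percentile.

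Ciita (chromosome 16, 10480014 to 10531064, 51.1 kb) had all of its listed sites in 1 part of the gene. Its strand and alternative starts are not in the tables used, so distances are from the lower-coordinate end and no site was assigned to a promoter. There were 7 shared sites inside and 1 of replicate 2 only, the last ending 19.4 kb from the lower end. No peak of either replicate lay in the other 31.6 kb of the gene, and the stretch without a peak was 43.5 kb long in all, across most of Dexi to the site at its start. With the better-scoring 50% of summits in each list 2 shared sites inside Ciita were left.

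At the lower end the site at 10479943 to 10480142 had 5.37 and 5.31-fold enrichment with 18 and 25 reads, and replicate 2 alone had a peak 180 bp below that end (4.09). The next sites were centred 2.50 kb (6.24 and 4.76), 8.06 kb (4.62 and 4.87), 9.33 kb (6.30 and 6.33) and 9.66 kb (4.42 and 3.28) from the lower end. Read numbers at these 4 ran from 16 to 23 in replicate 1 and from 16 to 32 in replicate 2. They were therefore weaker in reads than the start sites of H2-Aa or H2-Eb1. At 15.2 kb replicate 2 alone had a peak (5.28, 19 reads), and the shared site at 16.2 kb differed most between replicates, 3.92 with 10 reads against 5.96 with 21. By fold enrichment the strongest site inside Ciita was the last, at 19.3 kb, with 8.75 and 7.39-fold enrichment and 24 and 27 reads. The site at 9.33 kb had 23 and 32 reads, more than the last in replicate 2, over a higher local background there (4.21 against 2.79).

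Below the gene there were 6 shared sites. The nearest, centred at -3.91 kb, had 9.17 and 6.64-fold enrichment, and the one at -18.6 kb had 7.49 and 10.5. The others, inside Tvp23a, were at -38.0 kb (6.77 and 5.86), -38.5 kb (6.79 and 7.98), -43.5 kb (7.46 and 8.98) and -46.4 kb (5.90 and 5.02). The nearest was the strongest of the 6 in replicate 1, and the one at -18.6 kb in replicate 2. Above the gene there were 5 shared sites and 2 of replicate 2 only. The highest-scoring of the whole window was at the start of Dexi, 63.1 kb from the lower end of Ciita (6.66 and 8.04), and the next, at 65.3 kb, was at the start of Clec16a (5.82 and 5.73). The other 3 shared sites, inside Clec16a, were at 66.5 kb (4.46 and 4.29), 82.6 kb (7.66 and 7.03) and 85.7 kb (5.75 and 8.23). The peaks of replicate 2 only were at 80.2 kb (4.23) and 82.9 kb (4.44).

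**Figure D5:**
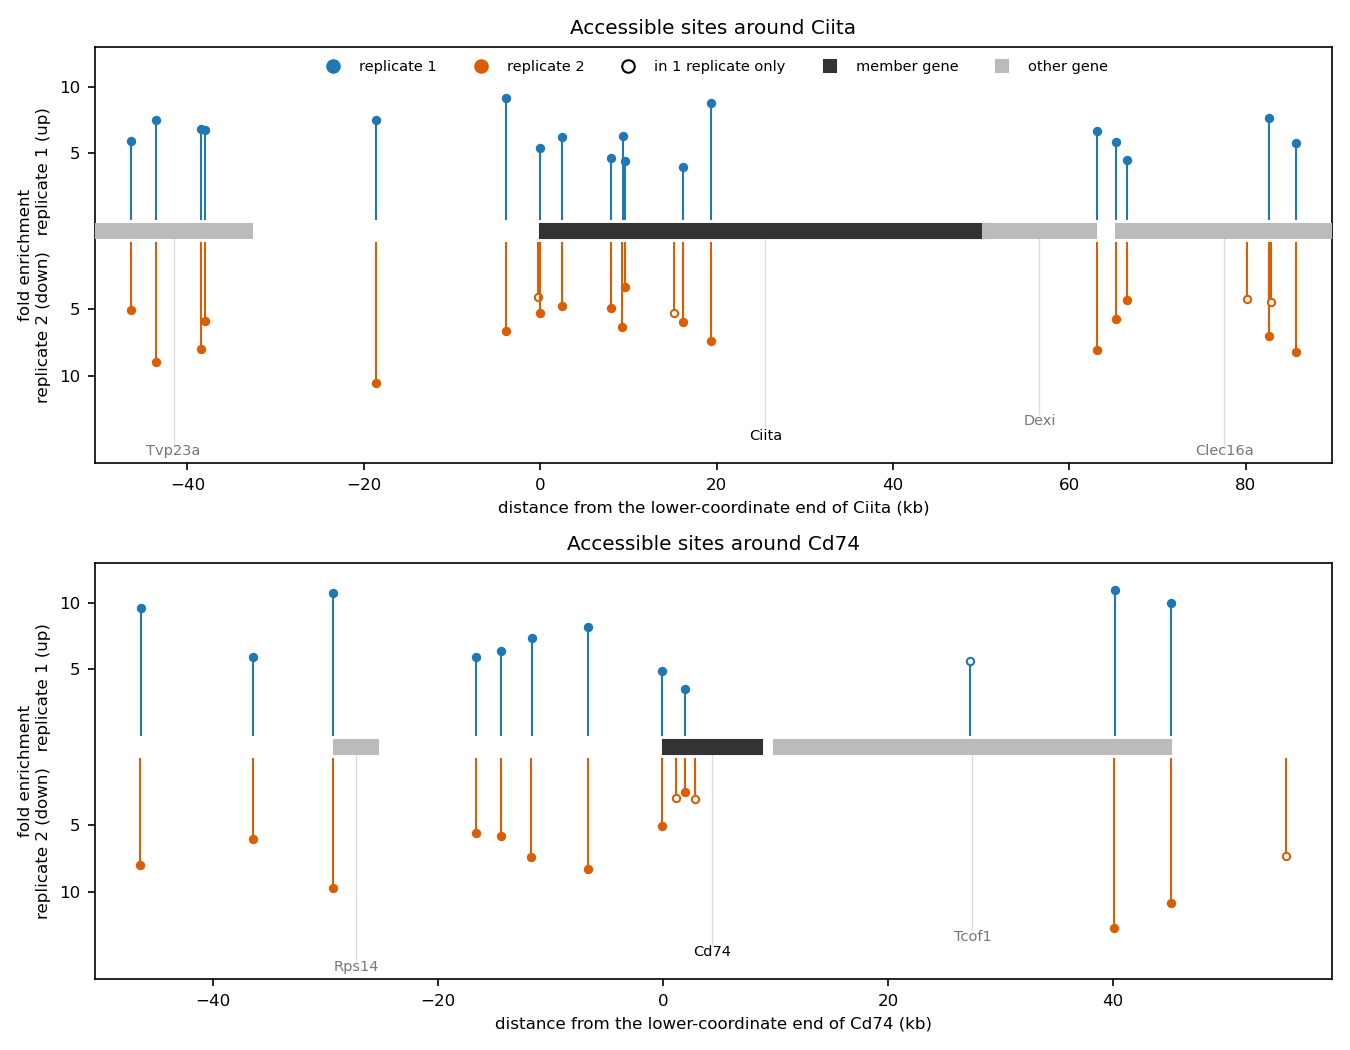
Fold enrichment of each peak around Ciita (top) and Cd74 (bottom), replicate 1 upward and replicate 2 downward from the gene track, against distance in kb from the lower-coordinate end of the gene; open circles are peaks of 1 replicate only. Sites inside Ciita end at 19.4 kb, and the sites inside Cd74 are the lowest of its window.

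Over the 78 shared sites the replicates gave close fold enrichments. The log2 ratio of replicate 2 to replicate 1 had a mean of -0.04 and an SD of 0.27, against 0.05 and 0.31 over all shared sites, and 39 sites were higher in each replicate. Sites in 1 replicate only numbered 5 in replicate 1, with 8 to 20 reads, and 13 in replicate 2, with 11 to 38 reads. Of the 78 sites 13 lay within 1 kb of an end of a member and 10 within 1 kb of an end of another coding gene.

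Of a list of 26 regulators and partners of the pathway, 23 (88.5%) had a shared site within 1 kb of a start, or of an end where no start is listed, against 48.3% of coding genes. The 23 include H2-Ea, a transcribed pseudogene and so not a coding gene, whose site lay inside H2-Eb2. The 4 with the highest-scoring such site were Nfyc, a subunit of NF-Y (14.4 and 15.3-fold enrichment), Lgmn, a lysosomal protease (11.9 and 12.2), Ctsl, another lysosomal protease (11.2 and 12.5), and Rfx5, a subunit of RFX (9.33 and 10.0). Rfxap had 6.83 and 6.75 and Rfxank 9.42 and 8.04, at a listed start for Rfx5 and Rfxank and at a gene end for Rfxap, for which no start is listed. The 3 without one were Spi1, which encodes PU.1, Cd4, the coreceptor for class II, and H2-Eb2, a class II gene next to H2-Eb1. The nearest shared site lay 1295 bp from an end of Spi1, 5800 bp from an end of Cd4 and 8101 bp from the listed start of H2-Eb2. Farther inside H2-Eb2 were shared sites at 34335240 to 34335396 (7.33 and 10.8) and 34341029 to 34341222 (10.3 and 7.54).

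Of 14 genes listed as neighbours of the members, 12 (85.7%) had a shared site within 1 kb of a start, or of an end where no start is listed, against 48.3% of coding genes. The 2 without were Tvp23a, beside Ciita, and Ndst1, beside Cd74. The list was not set by the 50 kb window, because Tapbp, Socs1, Nubp1 and Ndst1 lie farther than that from every member. The shared site nearest to an end lay 1342 bp from it for Tvp23a and 3387 bp for Ndst1. Shared sites did lie inside both genes. Those in Tvp23a are given above, and Ndst1 held 1 at 60744649 to 60744974, with 12.6 and 14.9-fold enrichment. For 9 of the 12 the site lay in the window of a member and so is among the shared sites already counted. Those at Dexi and Clec16a are given above. Psmb9 and Tap1, which serve class I presentation, shared a site with 5.69 and 6.96-fold enrichment. Psmb8 had the site with 9.69 and 7.35, and Tap2 had 4.38 and 4.38. Brd2 had 3.58 and 3.94, and at the ends of the genes beside Cd74, Tcof1 had 9.98 and 10.9 and Rps14 had 10.7 and 9.72. No peak of either replicate was listed over 28.8 kb from inside Tap2 to a shared site below H2-Ob, nor over 24.4 kb from inside Cd74 into Tcof1.

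The 50 kb limit left further listed sites outside it at each locus. In the class II region the last sites inside lay 44.8 kb below H2-Oa (9.89 and 8.34-fold enrichment) and 48.1 kb above H2-Eb1 (8.05 and 6.50), and the first outside were at 51.9 kb (6.13 and 4.68) and 56.7 kb (7.33 and 7.84). Around Ciita the outermost sites inside were 46.4 and 34.6 kb away and the next outside 61.8 and 109 kb. Around Cd74 they were 46.4 and 46.6 kb inside and 58.9 and 78.6 kb outside. The site at 58.9 kb, inside Ndst1, had 12.6 and 14.9-fold enrichment. That is above every one of the 78 shared sites, whose highest values were 11.0 and 12.8.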

How the data were processed

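ATAC-seq peaks of 2 samples were analysed. Per the submitters' processing notes, MACS2, BWA 0.7.17, HOMER 4.9.1, Picard 2.8.1, Trimmomatic and the build mm10 were used; their roles, the read shift, duplicate removal and the threshold are not given in the sources used here, and each can change which weak peaks are listed. Each sample has its own list of peaks, in coordinates of mm10. The deposited fold enrichment, a ratio, sets the summit's reads against local background. The deposited −log10 p and −log10 q rate the summit against that background. The deposited score is −log10 q times 10 as a whole number. The authors' lowest −log10 q was 3.00 in both lists.

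Summits of a peak were joined, and reads and background were solved from fold and Poisson p, which returned the deposited −log10 p within 0.002 for 100% of summits. The method was tested on simulated data. Starts came from the RefSeq promoter table, or either gene end where a gene is not listed. Python 3.11.15, numpy 2.4.6, scipy 1.17.1, pandas 2.3.3, Biopython 1.88 and matplotlib 3.10.9 were used.

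The samples form 1 group, so nothing was tested. Members and lists were chosen with earlier results of these data known. Named were all members with their sites at starts, best sites and nearby peaks of 1 replicate, every Ciita site, of the pathway list the 4 highest-scoring genes and those without a site, and neighbouring genes with a site of a member's window at a start (either end where none is listed). Alternatives changed the overlap, score, window and start distance and left out each replicate.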

Additional observations from a re-analysis of the deposited data

How the results depend on the processing

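The median of 16.5 shared sites for each gene was 9 with a window of 20 kb, 26.5 with 100 kb and 6.5 with each site given to its nearest member. Keeping the better-scoring 50% of summits left 38 distinct shared sites in place of 78, a median of 8 for each gene, 2 sites inside Ciita in place of 7, and 83.0% of the peaks of replicate 1 shared. A reciprocal overlap of 50% gave 85.7% for replicate 1, against 94.0%. With only 1 replicate the distinct sites numbered 84 to 92, the median 17 to 20, the genes with a site at a start or end 8 to 8, the sites inside Ciita 7 to 9 and the pathway genes 23 to 23. The counts of sites moved by the construction of these settings, which count fewer or more sites; for the 2 shares the cause was not tested. The 30 summary values at the other settings, those with 1 replicate included, stayed within 1.5 times the reported counts or within the counting interval of the reported shares; of the counts for single genes 35 moved beyond 1.5 times and 45 did not. No paired analysis was possible because only 1 group has values. The depth limits the lists to summits of at least 7 reads in replicate 1 and 9 in replicate 2.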
